A study of Homo sapiens with 4 samples.

Results

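Zinc transporter and metallothionein genes were examined in SCC-15, a human cell line grown from a squamous carcinoma of the tongue, after transfection with a microRNA mimic. The members were all genes whose symbol in the platform annotation begins with SLC39A or SLC30A, or with MT1 and 1 further letter, or is MT2A, MT3 or MTF1. They numbered 34 of the 18132 genes with a probe set of their own, and comprised 14 SLC39A genes, 10 SLC30A genes, 9 metallothionein genes and MTF1. The family was selected on a measured value, the mimic-control difference of SLC39A8, which was the largest decrease of all genes tested (-2.69 on the log2 scale, with -2.37 for the next gene, IL6), so the values of SLC39A8 are a description and carry no test here. The other members entered by symbol. Their calls come from a fit over all genes, and nothing is read from how many members were called.

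The study comprised 4 one-colour Affymetrix arrays of total RNA. In 2, cells had received a microRNA mimic, which is a manufactured copy of a mature microRNA, and in the other 2 miR-NC, a negative control. Transfection followed seeding by 24 h at a stated mimic dose of 30 nM, and RNA was taken 36 h later in both groups. The mimic is miR-762 in the series title and design text but miR-585-5p in the sample labels. All 4 samples came from 1 cell line in culture. Whether replicates were separate cultures is not in the labels, so p-values reflect only how far these arrays spread, which may be technical variation.

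Both candidate microRNAs are shown because their seeds, the bases from 2 to 8 that pair with target transcripts, differ. The mature sequences are those of RefSeq (GRCh38.p14), written 5′ to 3′ with the seed in capitals. The oligonucleotide that was transfected may carry other bases.
hsa-miR-762: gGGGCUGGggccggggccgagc
hsa-miR-585-5p: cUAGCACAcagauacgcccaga

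Cells hold nearly all of their zinc bound to protein and keep the free ion scarce. SLC39A (ZIP) proteins move zinc, and some of them manganese, iron or cadmium, into the cytosol from outside the cell or from organelles. SLC30A (ZnT) proteins mostly move zinc out of the cytosol, although ZnT9 exports it from mitochondria. Importer and exporter are used below as names of the SLC39A and SLC30A families. Metallothioneins are small cysteine-rich proteins that bind zinc, copper and cadmium, and MTF1 is the zinc-sensing transcription factor that binds metal response elements and switches on metallothionein genes and SLC30A1 when zinc rises.

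Differences are given as mimic minus control in log2 units of RMA intensity, where 1 is a 2-fold difference. Over the 49293 probe sets of the array, log2 values of replicate arrays correlated at 0.998 for mimic and 0.997 for control, a description across features and not across samples. Squamous epithelial markers were bright, with log2 means of 8.74 to 12.07 for the 5 of 8 listed genes that had a probe set of their own. Fibroblast, leukocyte and endothelial markers lay between 1.13 and 5.85. Of these, the pan-leukocyte gene PTPRC (1.36) and the matrix genes LUM, COL3A1 and DCN were below the dim level. Above it were 3 of 6 fibroblast genes, 3 of the 4 leukocyte genes with a probe set of their own, and 4 of 4 endothelial genes. The dim level, 2.83, is the mean log2 value under which the lowest 30% of probe sets fell. It does not separate expressed from silent genes, since no detection calls were used.

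Of the 34 members, 27 had a probe set above the dim level and entered the fit with 1 probe set per gene, that with the highest mean over all arrays. The 7 without one were the importer genes SLC39A2 and SLC39A12, the exporter genes SLC30A4, SLC30A8 and SLC30A10, and MT1H and MT1M. Apart from SLC39A8, 9 of 26 members were higher and 4 lower with mimic (limma with Benjamini-Hochberg adjustment, threshold 0.05), 13 did not pass, and the groups did not overlap for 18. Over all 14340 genes tested, 17.7% were called higher, 12.3% lower and 30.1% in either direction, and the groups did not overlap for 70.4%. A further quantile normalization of the arrays split the calls of these 26 members into 7 higher and 5 lower, against 9 and 4 without it, and moved the share of calls that were higher over all genes from 59.0% to 44.0%. The median difference was -0.01 over these 26 members and -0.02 over all genes. In bulk RNA, a change in the share of cells that express a gene and a change of RNA per cell cannot be told apart.

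**Figure D1:**
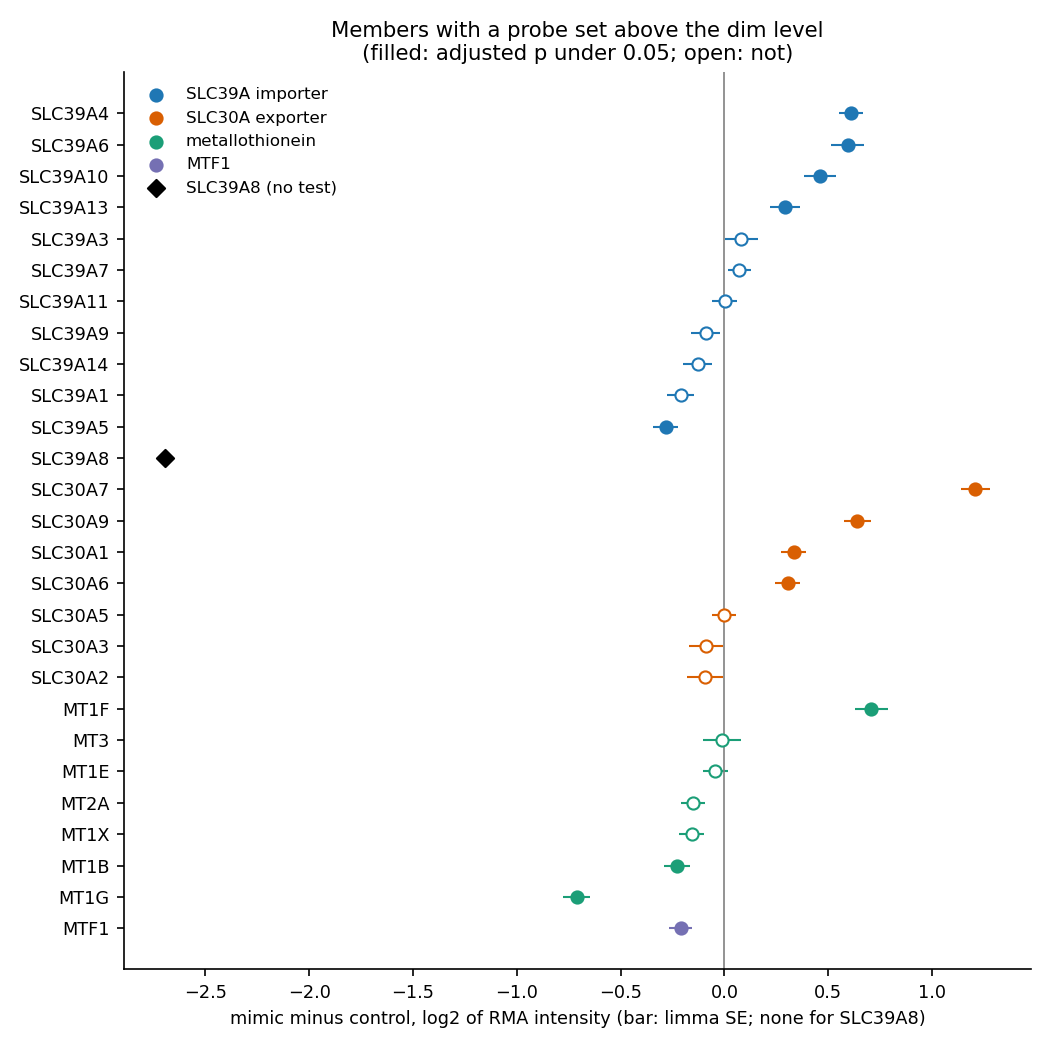
Mimic minus control difference (x axis, log2 of RMA intensity) of the 27 members with a probe set above the dim level (y axis), 1 probe set per gene, coloured by role. Bars are limma standard errors, filled points passed an adjusted p of 0.05, and SLC39A8 (black diamond) is shown without a test. SLC39A8 lies at -2.69, and all other members lie between -0.71 (MT1G) and 1.21 (SLC30A7).

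SLC39A8 encodes ZIP8, an importer of zinc and manganese, and also of cadmium, at the cell surface and lysosome. Its probe set with the highest mean (11724252_s_at) read 4.37 and 4.39 in the mimic arrays and 7.22 and 6.93 in the control arrays. The mimic arrays were nearly equal and both far below the controls, of which control 1 was the higher. The difference of -2.69 corresponds to a 6.46-fold lower intensity.

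The gene had 6 probe sets. The next (11724249_a_at) read 3.40 and 3.63 with mimic against 5.16 and 5.06 with control, a difference of -1.59, and the groups again did not overlap. Probe set 11740764_at read 2.98 and 2.84 against 3.76 and 3.67, a difference of -0.80 in which both mimic values sat close to the dim level. The controls of 2 others were already near that level. Probe set 11724250_a_at read 2.93 and 2.88 against 3.31 and 3.14 (-0.32), and 11724251_x_at read 3.04 and 3.00 against 3.05 and 3.28 (-0.15). The last (11734800_at) was below the dim level throughout, between 2.01 and 2.15, and its groups overlapped. The differences thus shrank in the order of the control means, and the 3 probe sets with the smallest differences had control means of 3.23 or lower. Averaged over all 6 probe sets the difference was -0.93, and it was -1.59 when _s_at and _x_at probe sets were set aside. These kinds hold probes that can match more than 1 transcript.

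**Figure D2:**
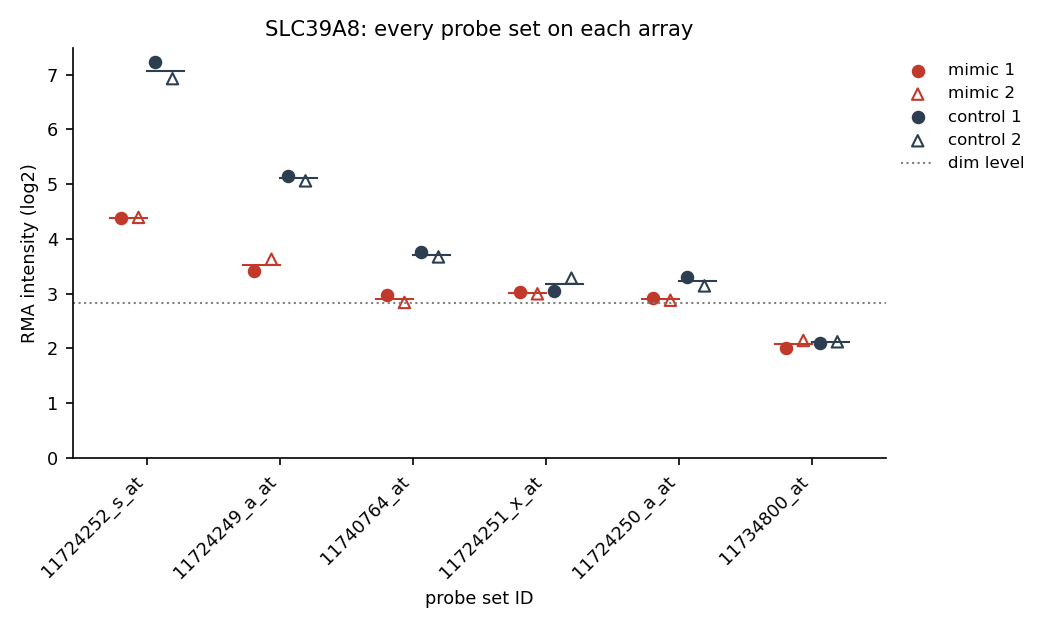
RMA intensity (y axis, log2) of the 6 SLC39A8 probe sets (x axis) on each array, with mimic arrays in red, control arrays in dark blue, short lines at the group means and a dotted line at the dim level of 2.83. The gap between groups is 2.69 in the probe set with the highest mean and shrinks as control values approach the dotted line.

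Among the other importers, 4 of 11 tested were higher, 1 was lower and 6 did not pass. Over all genes 17.7% were higher and 12.3% lower. The median difference of these importers was 0.07, against -0.02 over all genes. When the arrays were quantile-normalized once more it was -0.03, against -0.07 over all genes. In that fit 3 of these importers were higher and 2 lower, and over all genes 44.0% of the calls were higher. SLC39A4 encodes ZIP4, the zinc importer of the intestinal surface whose loss causes acrodermatitis enteropathica. It read 8.95 and 9.00 in the mimic arrays and 8.38 and 8.36 in the controls. Both mimic arrays were above both controls, and the difference was 0.61 ± 0.058 (SE), 1.53-fold (limma adjusted p = 0.00361), from the gene's single probe set.

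SLC39A6 and SLC39A10 encode ZIP6 and ZIP10, surface importers that are known to form a heteromer. SLC39A6 read 10.12 and 10.19 with mimic and 9.64 and 9.48 with control, with no overlap and a difference of 0.59 ± 0.078 (SE), 1.51-fold (limma adjusted p = 0.00783). Its other probe sets gave 0.64 and 0.60, so that all 3 rose by nearly the same amount, and all 3 passed in the fit over every probe set. SLC39A10, which was below the naming limit of 0.5 and is given because of this partnership, read 8.24 and 8.39 against 7.89 and 7.82, again without overlap (0.46 ± 0.077 SE, limma adjusted p = 0.0145). Its 2 other probe sets were below the dim level, and as the mean of all 3 the difference was 0.15 and the call was lost.

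SLC39A14 encodes ZIP14, the closest relative of ZIP8, which carries zinc, manganese and iron. It read 9.15 and 9.15 in the mimic arrays and 9.22 and 9.35 in the controls. The mimic values were the lower ones, but the difference of -0.13 ± 0.069 (SE) did not pass (limma adjusted p = 0.209). The other 3 probe sets of the gene were below the dim level.

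Of the remaining importers, SLC39A13, which encodes a vesicular and Golgi zinc carrier, was higher by 0.29 (limma adjusted p = 0.0392), and SLC39A5 was lower by 0.28 (limma adjusted p = 0.0253) at a mean of 3.15, close to the dim level. Neither of the 2 probe sets of SLC39A13 passed in the fit over every probe set, and its call was lost after a further quantile normalization. SLC39A1, SLC39A3, SLC39A7, SLC39A9 and SLC39A11 did not pass, with differences of -0.21, 0.08, 0.07, -0.09 and 0.00. For SLC39A1, the broadly expressed surface importer ZIP1, all 9 probe sets were negative, between -0.28 and -0.005, and none of the 9 passed. In SLC39A3 the probe sets went both ways, from -0.37, which passed, to 0.08. All 6 probe sets of SLC39A9 above the dim level were negative, from -0.21 to -0.02, and none passed.

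The exporters had 4 of 7 tested genes higher, 0 lower and 3 that did not pass, beside 17.7% and 12.3% over all genes. Their median difference was 0.30, against -0.02 over all genes. After a further quantile normalization 3 were higher, and the median was 0.20, against -0.07 over all genes. The largest increase of any member was that of SLC30A7, which encodes ZnT7, a Golgi exporter that supplies zinc to enzymes of the secretory pathway such as alkaline phosphatases. Its probe set with the highest mean (11722286_a_at) read 6.24 and 6.35 in the mimic arrays and 5.05 and 5.12 in the controls. The groups were far apart relative to their spread, with a difference of 1.21 ± 0.069 (SE), 2.31-fold (limma adjusted p = 0.0013).

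A second SLC30A7 probe set (11722287_a_at) read 5.27 and 5.21 against 3.74 and 3.67, a larger difference of 1.53, and passed in the fit over every probe set. The third (11722285_a_at) read 3.66 and 3.45 against 3.30 and 3.32. It did not overlap between groups but gave 0.25 only and did not pass, at a mean of 3.43.

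SLC30A9 encodes ZnT9, which exports zinc from mitochondria. It read 9.08 and 8.99 with mimic and 8.40 and 8.38 with control, with no overlap and a difference of 0.64 ± 0.063 (SE), 1.56-fold (limma adjusted p = 0.00395). Its other probe set was below the dim level, and as the mean of both the difference was 0.33, which passed.

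SLC30A1 encodes ZnT1, the exporter of the plasma membrane and a known target of MTF1. It read 7.84 and 7.92 with mimic and 7.55 and 7.54 with control, a difference of 0.33 ± 0.060 (SE), 1.26-fold (limma adjusted p = 0.0179). The other probe set of SLC30A1 read 4.63 and 4.87 against 4.50 and 4.73, where the groups overlapped. Its difference of 0.13 did not pass, and the call was lost when the 2 probe sets were averaged (0.23, limma adjusted p = 0.0688).

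ZnT5 and ZnT6, encoded by SLC30A5 and SLC30A6, form a heterodimer in the early secretory pathway, the compartment of ZnT7. SLC30A6 was higher by 0.30 (limma adjusted p = 0.0231), and all 3 of its probe sets above the dim level were positive. SLC30A5 was at -0.003, with 4 probe sets between -0.07 and 0.16, none of which passed. The call of SLC30A6 was lost after a further quantile normalization. SLC30A2 and SLC30A3, known from secretory epithelium and synaptic vesicles, were at -0.09 each and did not pass.

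**Figure D3:**
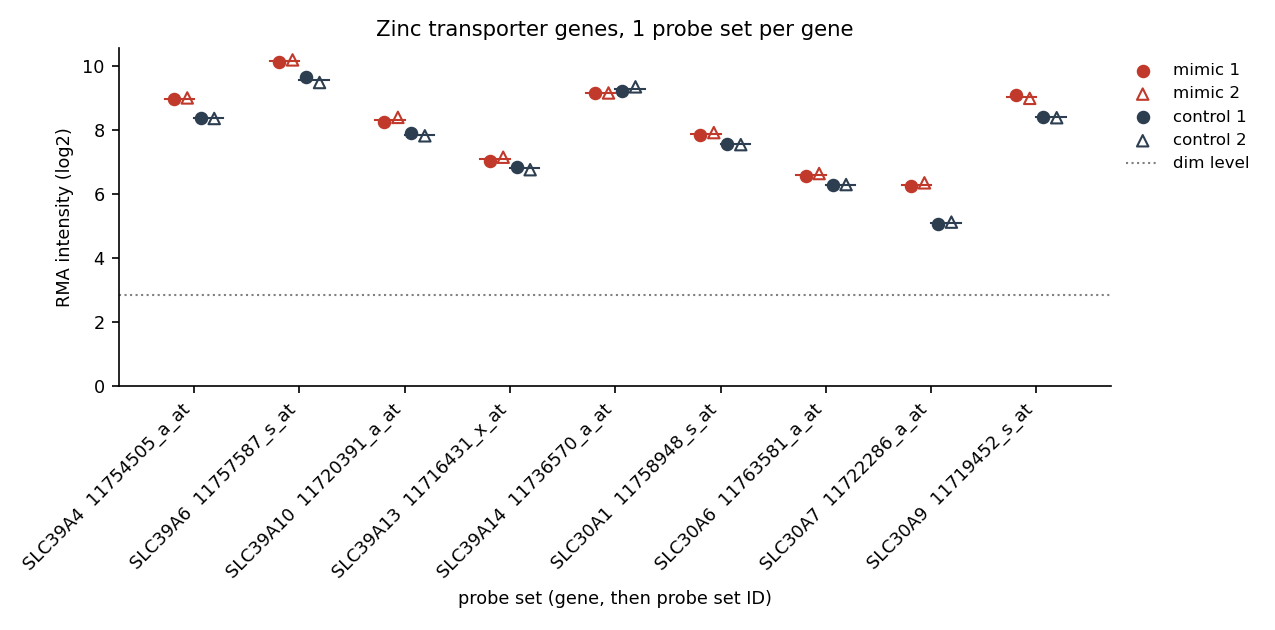
RMA intensity (y axis, log2) on each array of 9 zinc transporter genes (x axis), 1 probe set per gene, with mimic arrays in red, control arrays in dark blue and short lines at the group means. Shown are the transporter genes called higher, and SLC39A14, so the direction of all but SLC39A14 was fixed by that choice. SLC39A5, called lower (-0.28), and the other transporters that did not pass are not shown. The widest gap is that of SLC30A7 (1.21), and SLC39A14 is the only one of the 9 with lower mimic values.

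The metallothionein genes lie side by side on chromosome 16. From MT3 to MT1X, RefSeq lists MT2A, MT1E, MT1M, MT1A, MT1B, MT1F, MT1G and MT1H between them, together with pseudogenes and non-coding genes. Of the 7 metallothionein genes tested, 1 was higher, 2 were lower and 4 did not pass, beside 17.7% higher and 12.3% lower over all genes. Their median was -0.15, against -0.02 over all genes, and -0.14 after a further quantile normalization, against -0.07. These genes have very similar coding sequences and 8 of their 12 probe sets above the dim level were of the _s_at or _x_at kind, so a value may hold signal of more than 1 copy.

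**Figure D4:**
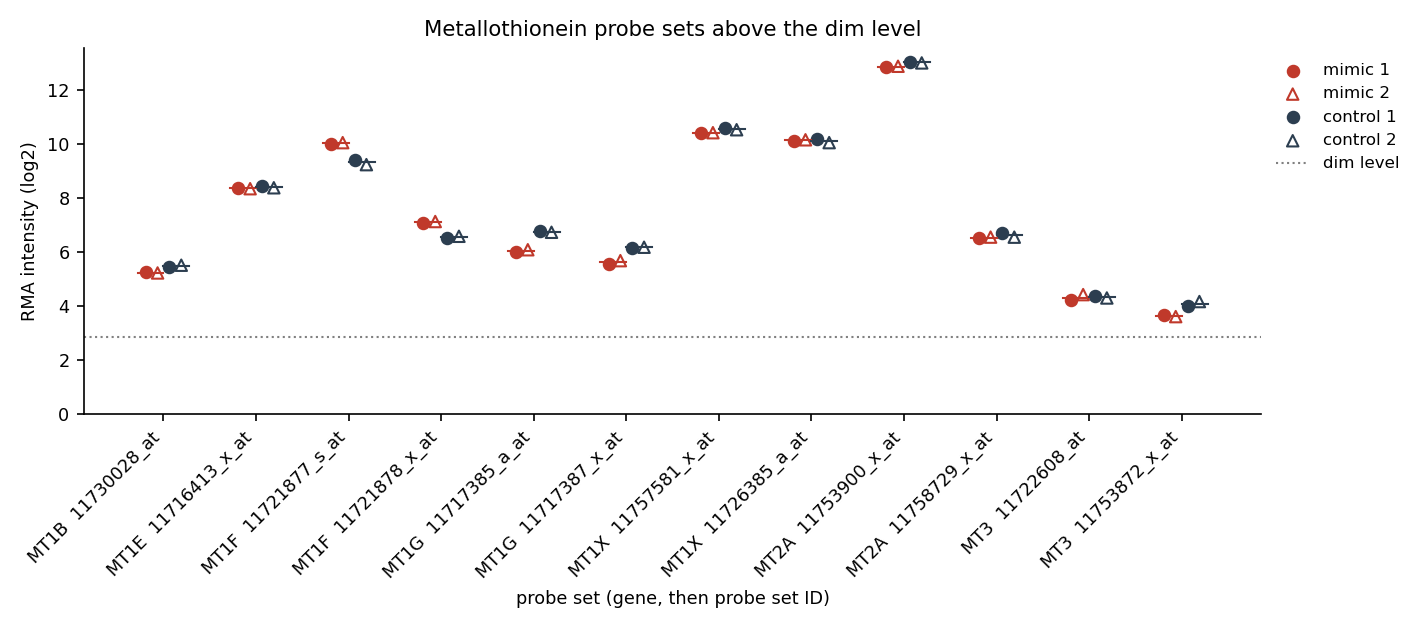
RMA intensity (y axis, log2) on each array of the 12 metallothionein probe sets above the dim level (x axis), with mimic arrays in red, control arrays in dark blue, short lines at the group means and a dotted line at the dim level. Mimic values are higher in both MT1F probe sets and lower in both MT1G probe sets, while those of MT1E, MT1X and MT2A lie within 0.16 of the controls.

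MT1F and its neighbour MT1G differed in opposite directions. MT1F read 10.00 and 10.04 in the mimic arrays and 9.40 and 9.23 in the controls, a difference of 0.71 ± 0.079 (SE), 1.63-fold (limma adjusted p = 0.00519). Its second probe set read 7.07 and 7.12 against 6.53 and 6.58, a difference of 0.55, and both were without overlap and passed in the fit over every probe set.

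MT1G read 6.00 and 6.08 in the mimic arrays and 6.78 and 6.72 in the controls, a difference of -0.71 ± 0.063 (SE), 1.64-fold lower (limma adjusted p = 0.00298). The second probe set, at 5.56 and 5.67 against 6.15 and 6.17, gave -0.54 and also passed, and 1 more was below the dim level. As the mean of all 3 the difference was -0.39, which passed.

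MT2A, a metallothionein gene that many tissues express, read 12.85 and 12.87 with mimic and 13.03 and 12.99 with control. The mimic arrays were both lower, by 0.15 ± 0.057 (SE), which did not pass (limma adjusted p = 0.104). It passed with a trended prior (limma adjusted p = 0.0044) and with log2 of the value + 16 (limma adjusted p = 0.045). MT1X read 10.39 and 10.41 against 10.59 and 10.52, with -0.16 ± 0.060 (SE) and no pass (limma adjusted p = 0.108), but passed with a trended prior (limma adjusted p = 0.018). Its second probe set was at 0.004 with overlapping groups. MT1E read 8.37 and 8.34 against 8.43 and 8.37. Its groups overlapped, at a difference of -0.04 ± 0.059 (SE; limma adjusted p = 0.599).

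MT1B was lower by 0.23, at the edge of the threshold (limma adjusted p = 0.0496), and its call was lost in the fit over every probe set. MT3, the brain form, was at -0.01 in one probe set and at -0.45 in the other, which passed in that fit. A probe set annotated to MT1JP, MT1M and MT1P3 together was kept out of all tests. It read between 2.58 and 2.85 on the 4 arrays, and its groups overlapped.

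MTF1 read 6.15 and 6.16 in the mimic arrays and 6.36 and 6.36 in the controls. Replicates were nearly identical and the groups apart, with a difference of -0.21 ± 0.056 (SE), 1.16-fold lower (limma adjusted p = 0.0455). All 5 MTF1 probe sets were negative, between -0.25 and -0.15, without overlap in any, but none passed in the fit over every probe set. Among all genes tested, with 1 probe set per gene, the groups did not overlap for 70.4%, so a lack of overlap was common. The share over all probe sets was not computed. The 5 probe sets measured the same gene on the same arrays and are not independent.

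Over all probe sets above the dim level, apart from those of SLC39A8, 12 of 66 members' probe sets were higher and 5 lower, and 49 did not pass. Over all 31711 probe sets tested, 14.5% were called higher and 7.95% lower, 22.4% in all. With any 1 array left out, 0 of these 66 probe sets passed in limma (19 to 28 at an unadjusted p under 0.05), and 0 of all 31711 did. A further quantile normalization gave 11 higher and 9 lower, against 12 and 5, and moved the share of calls that were higher over all probe sets from 64.5% to 50.4%. The median difference was -0.05 for the members' probe sets and -0.01 for all probe sets. Within each of SLC39A6, SLC39A8, SLC30A7, MT1F, MT1G and MTF1, all probe sets above the dim level had 1 sign, although the sizes within SLC30A7 and SLC39A8 spanned 1.28 and 2.54. The same held for SLC39A1 and SLC39A9, where none passed, and for SLC39A13, SLC30A1, SLC30A3, SLC30A6, MT2A and MT3. Signs were mixed in SLC39A3, SLC39A7, SLC39A11, SLC30A5 and MT1X, so having 1 sign did not set the named genes apart.

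**Figure D5:**
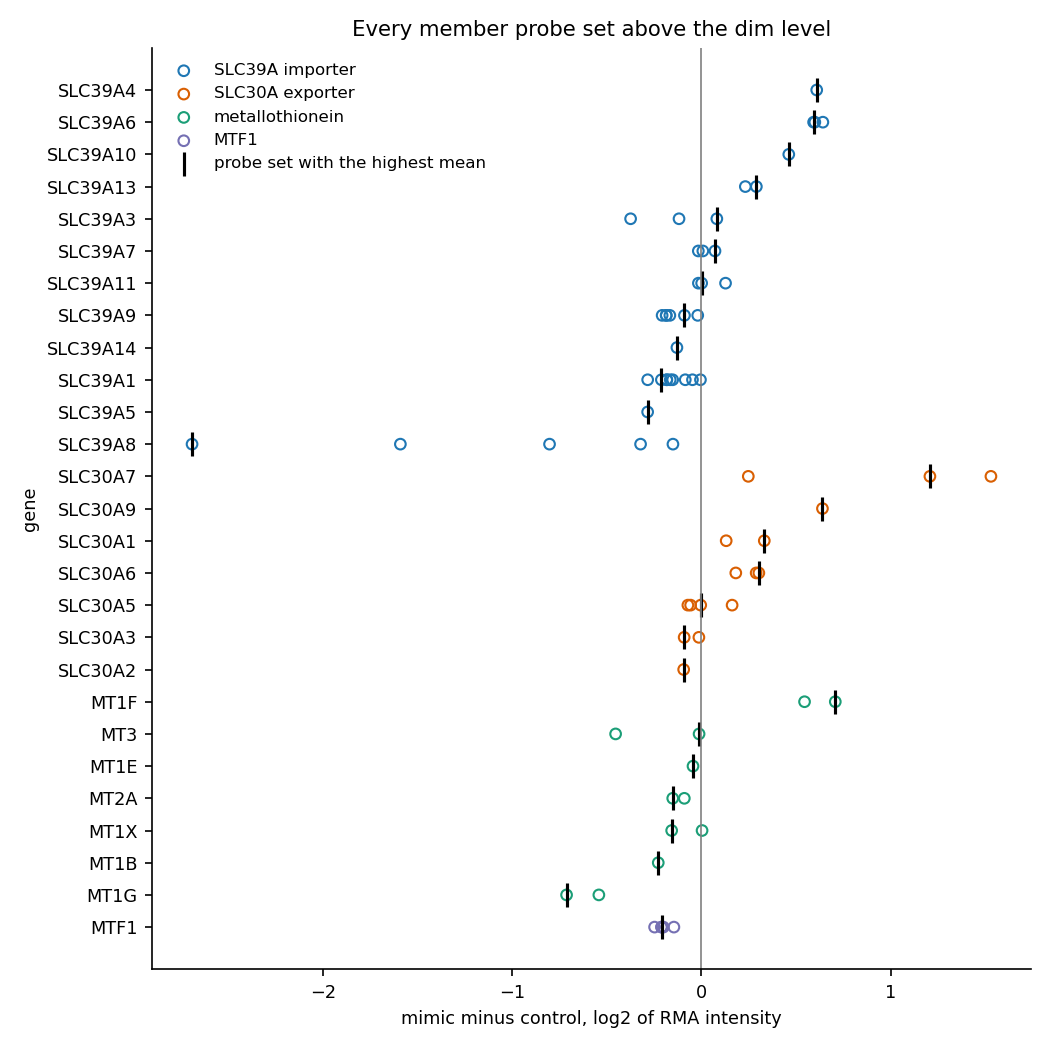
Mimic minus control difference (x axis, log2 of RMA intensity) of every member probe set above the dim level (open circles, 71 in all), by gene (y axis), with a black tick at the probe set with the highest mean. SLC39A8 spans -2.69 to -0.15 and SLC30A7 spans 0.25 to 1.53, whereas the probe sets of SLC39A6 lie between 0.59 and 0.64.

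Promoter sequences are shown because MTF1 acts through the metal response element, whose core was searched as TGCACNC and TGCGCNC on both strands, overlapping matches being counted separately. RefSeq promoters (GRCh38.p14, from 250 bases before to 50 after the start) were given for 26 of the 34 members, in 35 entries. All 4 metallothionein genes with an entry (MT1B, MT1H, MT1X and MT2A) held 3 to 8 matches, and 29.6% of all 35116 promoters of this length held 1 or more and 2.3% held 3 or more. MT2A and MT1H held 8 each, MT1X 4 and MT1B 3. Of 9 SLC30A genes with an entry 5 had a match, at most 3, and of 12 SLC39A genes 7 had 1 in at least 1 entry. These counts are by gene, from its entry with the most matches, over 11 SLC30A and 19 SLC39A entries. The shares over all promoters are by entry, so the 2 are not on the same footing. No match was found for 10 of the 26 genes, among them MTF1, SLC30A7 and SLC30A9. A match describes the letters and is not evidence of binding.

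The 150 bases before the start are given, 5′ to 3′ on the strand of the gene, with each match in capitals, for MT2A and MT1X, for SLC30A1 and for SLC39A8. The windows, all on GRCh38.p14, are chr16:56608434-56608583 on the plus strand for MT2A, chr16:56682320-56682469 on the plus strand for MT1X, chr1:211579162-211579311 on the minus strand for SLC30A1, and chr4:102345483-102345632 on the minus strand for SLC39A8. For SLC39A8 the window shown is that of the only 1 of its 3 promoter entries with a match.
MT2A: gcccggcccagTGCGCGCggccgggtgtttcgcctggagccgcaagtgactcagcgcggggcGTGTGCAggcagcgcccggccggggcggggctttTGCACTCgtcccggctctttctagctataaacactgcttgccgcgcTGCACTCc
MT1X: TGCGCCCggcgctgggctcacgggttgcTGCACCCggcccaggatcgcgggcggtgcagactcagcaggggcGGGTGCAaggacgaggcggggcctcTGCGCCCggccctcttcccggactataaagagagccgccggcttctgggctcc
SLC30A1: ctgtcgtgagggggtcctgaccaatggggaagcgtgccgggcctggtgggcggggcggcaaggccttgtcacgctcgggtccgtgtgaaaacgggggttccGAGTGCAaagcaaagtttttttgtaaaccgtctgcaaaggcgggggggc
SLC39A8: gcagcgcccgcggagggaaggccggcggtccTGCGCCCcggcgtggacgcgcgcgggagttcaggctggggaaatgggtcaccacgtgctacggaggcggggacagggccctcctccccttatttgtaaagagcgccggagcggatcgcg
In these windows MT2A and MT1X each held 4 matches, 3 on the strand of the gene and 1 on the other, whereas SLC30A1 and SLC39A8 each held 1. MT2A and MT1X, with 4 matches each, differed by -0.15 and -0.16 between mimic and control, SLC30A1 by 0.33 and SLC39A8 by -2.69. The differences of MT2A and MT1X did not pass. The second probe sets of MT1X and SLC30A1, at 0.004 and 0.13, did not pass either. Over the whole promoter entries MT2A held 8 matches, MT1X 4, SLC30A1 2 and SLC39A8 1. MT1F and MT1G, which were called in opposite directions, had no promoter entry. Whether the matches bear on any of these differences was not tested.

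Other genes of metal handling were taken from a list of 26 genes of zinc, manganese, copper and iron transport, storage and sensing, of which 24 had a probe set of their own and 21 were above the dim level. In this list 3 genes were higher, 6 lower and 12 did not pass, beside 17.7% and 12.3% over all genes. The median difference of the list was -0.06, against -0.02 over all genes, and -0.12 after a further quantile normalization, against -0.07. Without mimic replicate 1 or 2, 0 genes of the list passed in limma (8 and 10 at an unadjusted p under 0.05), and without control replicate 1 or 2, 1 and 2 passed. None or few of all genes passed in those fits, so these counts are not a result about the list. ATP2C1, the Golgi pump for calcium and manganese, read 8.24 and 8.18 with mimic and 7.41 and 7.37 with control, without overlap (0.82 ± 0.060 SE, limma adjusted p = 0.00199). MCOLN1, a lysosomal cation channel that conducts zinc and iron, read 6.57 and 6.50 against 7.07 and 7.13. Its mimic values were both lower (-0.56 ± 0.063 SE, limma adjusted p = 0.00522).

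SOD1, the copper and zinc superoxide dismutase, read 11.64 and 11.73 against 11.08 and 11.17, higher in both mimic arrays (0.56 ± 0.067 SE, limma adjusted p = 0.00618). HMOX1, the haem-degrading enzyme that releases iron, read 4.21 and 4.25 against 4.78 and 4.68, lower in both (-0.50 ± 0.066 SE, limma adjusted p = 0.00761).

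Without mimic replicate 1 or 2, 0 of all 14340 genes passed in limma (4198 and 4269 at an unadjusted p under 0.05), so the 0 of 26 members there (11 and 10 unadjusted) says nothing about the members. Without control replicate 1, 2 of 26 members passed, beside 4.55% of all genes, and without control replicate 2, 4 passed, beside 6.72%. SLC30A7 and MT1F kept their call without either control array, and SLC39A4 and MT1G without control replicate 2 only. Over the alternatives tried, left-out arrays included, the call of MT1B was lost in 10 of 14, that of SLC39A13 in 8 of 14, that of MTF1 in 7 of 14, that of SLC39A5 in 7 of 13, those of SLC30A1 and SLC30A6 in 6 of 14 each, and that of SLC39A10 in 5 of 14. No exact permutation test of a single gene could go below a two-sided p of 0.333 with 2 against 2 arrays.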

How the data were processed

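There were 4 arrays, 2 mimic and 2 control. The authors processed them with RMA, per the submitters' processing notes, that is with background correction, normalization between arrays and 1 summary per probe set. Version and settings were not given in the sources used here. Deposited values were intensities on a linear scale (1.62 to 11401), and log2 was taken here. RMA compresses differences of dim probe sets. Precision is limited by the 2 arrays per group.

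Of 49293 probe sets, 44988 had 1 gene symbol, 1832 several and 2473 none; those with 1 symbol were used. The 30% of probe sets with the lowest mean (log2 under 2.83) were left out, leaving 14340 genes, or 31711 probe sets in the second fit. Groups were compared with limma 3.58.1 (lmFit and eBayes, R 4.3.3) without a replicate block, on 4.98 degrees of freedom, with Benjamini-Hochberg adjustment over all features and a threshold of 0.05; the code was tested on simulated data. Alternatives changed the log scale, filter, scaling, prior, block, probe set choice and arrays.

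The members and lists were chosen with earlier results of these data known. Named were 8 fixed members (SLC39A8, SLC39A14, SLC30A1, MTF1, MT2A, MT1X, MT1E, MT1F), members called with a difference of 0.5 or more, and the 4 called genes of the metal list with the largest differences; other members are given by counts, ranges or single values.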

Additional observations from a re-analysis of the deposited data

How the results depend on the processing

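The count of members called with 1 probe set per gene was 13 of 26 in the full fit, SLC39A8 set aside. It was 8 with the replicate block and 8 without _s_at and _x_at probe sets, where 22 members were tested. In the 8 other processing alternatives it was 10 to 14. Over all genes 30.1% were called in the full fit, 20.3% with the block and 25.9% without those probe sets. In the 8 others that share ranged from 19.6% to 40.6%. The count over every probe set (17 of 66) was 11 with the replicate block. Over all probe sets the share called was 22.4% in the full fit and 12% with the block. Leaving out 1 array gave 0 to 4 members with 1 probe set per gene, 0 to 2 genes of the metal list (9 in the full fit) and 0 of the 66 probe sets (limma, 19 to 28 at an unadjusted p under 0.05), as for all 31711 probe sets. None or few of all genes passed in those fits either. After a further quantile normalization the calls were split into 7 higher and 5 lower members against 9 and 4, and into 11 and 9 probe sets against 12 and 5. Whether replicate numbers pair the arrays is not in the labels. Deviations of same-numbered arrays correlated at -0.009 over probe sets. With 2 arrays per group this cannot settle the pairing, so the block result is given beside the main fit. The difference of SLC39A8 was -2.03 with log2 of the value + 16, -0.93 as the mean of all its probe sets and -1.59 without _s_at and _x_at probe sets. MT1X turned from -0.16 to 0.0036 without _s_at and _x_at probe sets, which leaves its other probe set. Of the 12 other named members, 8 were called in the full fit and 4 were not. Of their processing values, 107 kept direction and side of the threshold, 5 lost a call and 1 turned. In 3 a call was gained (MT2A with a trended prior and with log2 of the value + 16, MT1X with a trended prior). With 1 array left out, 0 of their differences turned, but most of the calls were lost.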
